A study of Mus musculus with 8 samples.

Results

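The comparison set c-kit+ acute myeloid leukaemia cells that lacked both Ezh1 and Ezh2 against cells that carried both genes. It rests on 4 of the 8 RNA sequencing libraries of the study. The 2 double-null libraries were from Ezh1-/- Ezh2-/- cells taken 7 days after tamoxifen treatment, and the 2 intact libraries were from Ezh1+/+ Ezh2+/+ cells taken 7 days after corn oil. The design text of the series gives the Ezh2 gene before deletion as flox/flox, so the intact cells carried the floxed gene without its deletion. The other 4 libraries stand beside them: 2 were Ezh1+/+ Ezh2-/- after tamoxifen (Ezh2-null) and 2 were Ezh1-/- Ezh2+/+ after corn oil (Ezh1-null). Mice on tamoxifen received 5 intraperitoneal doses, each of 10 mg/kg/day dissolved in corn oil. Every library started from 1 µg total RNA of C57BL/6 bone marrow cells, and their names begin with "Moz". The compared groups differ in Ezh1 genotype, in Ezh2 deletion and in tamoxifen at the same time, so these 3 differences cannot be told apart. The labels do not say whether replicates were separate animals or leukaemias, nor how many animals or clones there were, so every p measures the spread between libraries, which may be technical.

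Ezh1 and Ezh2 are alternative enzymes of Polycomb repressive complex 2 (PRC2). The complex places methyl groups on lysine 27 of histone H3, a mark of silenced genes, and in mammals it sits mostly at promoters rich in the dinucleotide CpG. Ezh2 dominates in dividing cells, and Ezh1 can maintain part of the mark when Ezh2 is lost. The canonical form of Polycomb repressive complex 1 (PRC1) reads the mark. Well known PRC2 targets are the Cdkn2a and Cdkn2b cell cycle inhibitors and genes of developmental transcription factors. In myeloid leukaemia, Hoxa genes and Meis1 are known for sustaining self-renewal.

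All values per library are log2 normalized reads centred on each gene's median of the 8 libraries, so they show differences between libraries and not the level of a gene. Differences are given as log2, double-null mean minus intact mean, ± the standard error of a limma fit with n = 2 libraries per group. Genes were called at a limma p under 0.05 after Benjamini-Hochberg adjustment over all tested genes, and every adjusted p below is of that kind. With 2 libraries against 2, an exact permutation test cannot give a p under 0.333. Between replicate libraries the median SD was 0.115 in double-null and 0.125 in intact cells. Total counts are unknown. The commonest low step in the values, a rough guide to the value of 1 count, was 2.13 and 2.18 normalized reads in the double-null libraries and 1.78 and 1.75 in the intact ones. Kit, the receptor used as the sort marker, was detected in all 8 libraries and was 0.99 ± 0.17 higher in double-null cells (adjusted p = 0.0167), as it was in the Ezh1-null libraries (0.53 and 0.64, against 0.25 and 0.38 in double-null cells). The call was lost without any 1 of the 4 compared libraries (adjusted p up to 0.0785).

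Of 31574 rows in the larger deposited table, 18051 had at least 2 libraries above the detection floor and were tested. Loss of both enzymes went with 4229 called genes, which was 23.4% of those tested. In the same fit, 4493 genes were called for Ezh1-null minus intact and 163 for Ezh2-null minus intact, differences that share the intact libraries. The number of calls is thus not particular to the loss of both enzymes. Of the 4229 genes, 2389 were higher (13.2% of tested genes) and 1840 were lower (10.2%). Counts of called members in the gene lists below are to be read beside these shares. Large differences were mostly upward: 360 called genes were at least 8-fold higher, and 70 were at least 8-fold lower. These sizes depend in part on the floor. In 202 called genes 1 compared group lay wholly at it, the intact group in 120 higher genes and the double-null group in 82 lower ones. In 12055 genes (66.8%) the 2 groups did not overlap, which included 6109 higher (33.8%) and 5946 lower (32.9%) in both double-null libraries. The interaction term of the fit, which asks whether Ezh2 loss with tamoxifen moved a gene differently in cells without Ezh1, was called for 86 genes (0.476%). The median called rise was 1.20 and the median called fall was -0.84. Without 1 library the count fell most for the compared libraries, to 1418 without intact 1, 1857 without intact 2, 1710 without double-null 1 and 1793 without double-null 2, and it was 2514 in a fit of the 4 compared libraries alone. A core of 1031 called genes, 648 higher and 383 lower, kept their call with any 1 of the 8 libraries left out. The share of called genes that were higher was 56.5% and depended on the scaling, since it was 49.6% after quantile normalization.

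**Figure D1:**
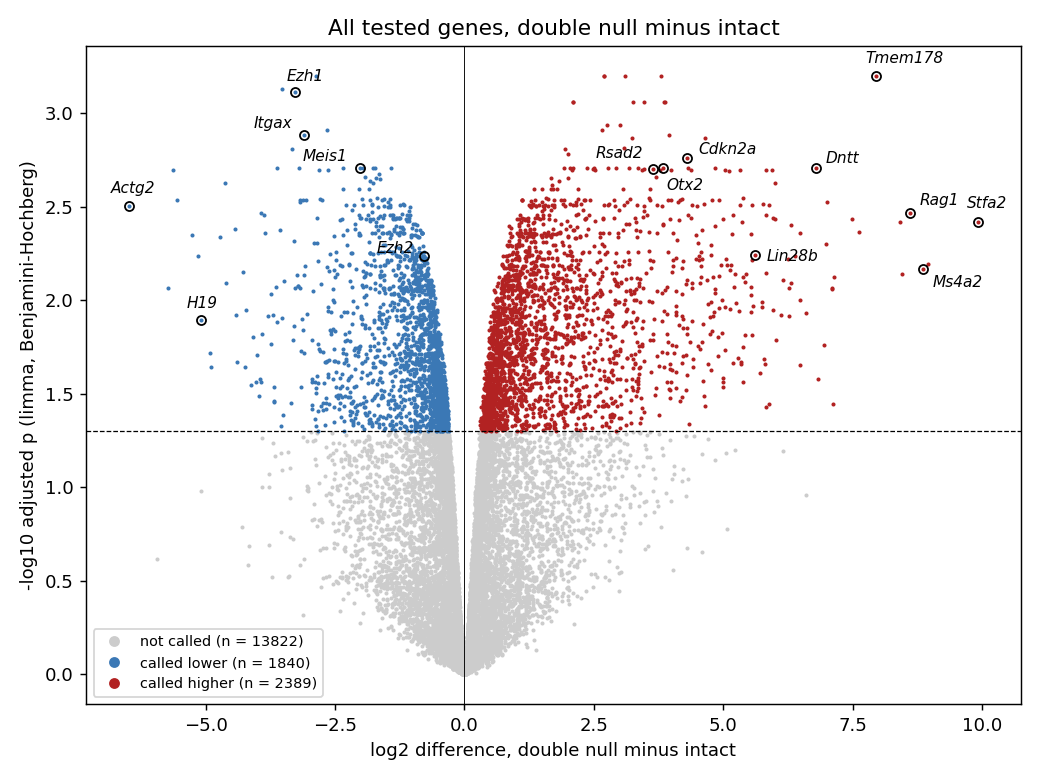
Each point is 1 of the 18051 tested genes, with the log2 difference (double null minus intact) on the x axis and -log10 of the limma adjusted p on the y axis. The dashed line marks an adjusted p of 0.05, above which 2389 genes lie to the right and 1840 to the left, and the rises reach farther (Stfa2 at 9.92) than the falls (Actg2 at -6.48).

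Ezh1 was low in every library labelled as lacking it, whereas Ezh2 values did not follow the Ezh2 labels in all groups. Ezh1 (chr11:101191115-101226450 in mm10) lay at 1.71 and 1.66 in the intact libraries and at -1.61 and -1.55 in the double-null ones, where it was as low as in the Ezh1-null libraries (-1.75 and -1.94). Its difference of -3.26 ± 0.10 is 9.61-fold (adjusted p = 0.000763). Ezh2 (chr6:47530274-47595338) lay at 0.25 and 0.23 in intact cells and at -0.53 and -0.56 in double-null cells. The groups did not overlap, and the difference of -0.78 ± 0.08 is 1.72-fold (adjusted p = 0.00582). The value covers the whole gene, and which part was deleted is not in the labels, so reads outside the deleted part may remain in it. In the Ezh2-null libraries Ezh2 lay at 0.09 and 0.03, with a difference from intact of -0.19 that was not called (adjusted p = 0.293). The Ezh1-null libraries, labelled Ezh2+/+, lay lower than these, at -0.12 and -0.03, and their difference from intact of -0.32 was called (adjusted p = 0.0492). The Ezh2 value thus does not check the Ezh2 labels.

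Counting the enzymes, 5 of the 6 PRC2 core genes were called lower and none higher, and Suz12 was the 1 other subunit that kept its call with any 1 library left out. Suz12, the subunit that holds the complex on chromatin, lay at 0.50 and 0.45 in intact and at -0.60 and -0.50 in double-null libraries, a difference of -1.02 ± 0.10 (adjusted p = 0.0046). Most of this fall was also seen in the Ezh1-null libraries (-0.41 and -0.25), whose difference from intact was -0.81 (adjusted p = 0.00668). The Ezh2-null difference was -0.19 (adjusted p = 0.357). The histone-binding subunits Rbbp7 (-0.54 ± 0.09, adjusted p = 0.0158) and Rbbp4 (-0.47 ± 0.10, adjusted p = 0.0285) were called, and both lost the call without any 1 of the 4 compared libraries (adjusted p up to 0.0736 for Rbbp7 and 0.115 for Rbbp4), which left 3 calls. In a fit of those 4 libraries alone Rbbp4 was not called either (adjusted p = 0.0634). Eed, which binds the finished mark, differed by -0.26 ± 0.11 and was not called (adjusted p = 0.14). The 7 tested accessory subunits, which steer PRC2 to its sites, had a median difference of -0.01, and 1 of them was called lower: Aebp2 at -0.38 ± 0.08 (adjusted p = 0.0302), lost without any 1 of the compared or Ezh1-null libraries (adjusted p up to 0.126) and in the fit of the 4 compared libraries alone (0.0818).

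PRC1 genes held calls in both branches of the complex. Among 14 tested subunits of canonical PRC1, 4 were called higher and none lower, against 13.2% and 10.2% of all tested genes. Bmi1, the Polycomb ring finger protein linked to stem cell self-renewal, lay at -0.60 and -0.75 in intact and at 0.75 and 0.91 in double-null libraries. That is a 2.84-fold rise (adjusted p = 0.00297), and both double-null libraries were above all 6 others. Pcgf2 (1.95 ± 0.46, adjusted p = 0.0375) and Scmh1 (0.71 ± 0.11, adjusted p = 0.013) were also called, and both lost the call without any 1 of the compared libraries (adjusted p up to 0.146 for Pcgf2 and 0.0657 for Scmh1). Pcgf2 was not called in the fit of the 4 compared libraries alone (adjusted p = 0.0581) or without the filter on low values (0.101). Scmh1 rose as far in the Ezh1-null libraries (0.71 over intact). In the variant PRC1 list, 2 of 10 were called higher, among them Bcorl1 (0.93 ± 0.10, adjusted p = 0.00563), and 4 lower (median 0.19, against 0.03 in the canonical list), among them its relative Bcor, a corepressor (-1.38 ± 0.12, adjusted p = 0.00367). Without any 1 of the compared libraries 1 lower call of the variant list was left, and without either Ezh1-null library there were 4 higher calls.

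Cell cycle inhibitors of the Ink4 family rose, but Cdkn2c and Cdkn2d rose as far in Ezh1-null cells. Against intact, these 2 genes differed by 1.46 and 0.81 in Ezh1-null libraries and by 1.11 and 0.76 in double-null ones. Cdkn2b did not rise in Ezh1-null libraries (-0.54). Cdkn2a, which encodes p16Ink4a and p19Arf from separate first exons, lay at -0.98 and -1.26 in the intact libraries and at 3.10 and 3.29 in the double-null ones. Its rise of 4.31 ± 0.20 is 19.8-fold (adjusted p = 0.00172). The Ezh1-null libraries (-1.19 and -1.44) were close to intact, and the Ezh2-null libraries lay between (1.40 and 0.98). The neighbouring gene Cdkn2b, which encodes p15Ink4b, lay at -0.69 and -0.83 in intact and at 1.96 and 2.99 in double-null libraries. It was 3.23 ± 0.59 higher (adjusted p = 0.0195) and lost the call without double-null 2, intact 1 or intact 2 (adjusted p up to 0.0856), and without the filter on low values (0.0569). Cdkn2c was called at 1.11 ± 0.20 (adjusted p = 0.0195) and lost the call without double-null 1, double-null 2 or intact 2, with an adjusted p up to 0.0859, and in the fit of the 4 compared libraries alone (0.076).

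In the same list, Cdkn2d was called at 0.76 ± 0.20 (adjusted p = 0.049), and without any library but double-null 2 it was not called (adjusted p up to 0.159), nor in 7 of 11 other settings. In all, 4 of 7 CDK inhibitors were called higher and 1 lower, and higher calls numbered 1 without intact 2 and 2 without intact 1, double-null 1 or double-null 2. The latter was Cdkn1b, the gene of p27Kip1, at 0.78 and 0.47 in intact and -0.33 and -0.59 in double-null libraries (-1.08 ± 0.14, adjusted p = 0.0089), a call that the fit of the 4 compared libraries alone did not give (0.0542). Cdkn1a, the p21 gene and a classic p53 target, differed by 0.26 ± 0.17 (adjusted p = 0.316), and Cdkn1c by 0.33 ± 0.19 (adjusted p = 0.264). The D-type cyclins Ccnd1 (1.94 ± 0.27, adjusted p = 0.00998) and Ccnd2 (2.06 ± 0.43, adjusted p = 0.0282), which drive the kinases that Ink4 proteins inhibit, were also called higher. Ccnd1 lost the call without double-null 2, intact 1 or intact 2 (adjusted p up to 0.0541), and Ccnd2 without any 1 of the compared libraries (adjusted p up to 0.118) or without the filter on low values (0.0771).

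The gene-level values cannot tell the 2 Cdkn2a transcripts apart. Both start sites are shown because they differ in CpG content, the feature by which PRC2 is known to be placed. The sequences are from RefSeq (GRCm38.p6, the build of mm10), run 5′ to 3′ on the minus strand over 300 bases around the start, and show each CpG in capitals. The upstream one, at chr4:89294570-89294869, holds 45 CpG and the downstream one, at chr4:89282143-89282442, holds 12. The median was 7 over all 32851 promoters in the RefSeq table and 18 over the tested genes with a promoter. The downstream start thus lies below the median of the tested genes.
Cdkn2a upstream start: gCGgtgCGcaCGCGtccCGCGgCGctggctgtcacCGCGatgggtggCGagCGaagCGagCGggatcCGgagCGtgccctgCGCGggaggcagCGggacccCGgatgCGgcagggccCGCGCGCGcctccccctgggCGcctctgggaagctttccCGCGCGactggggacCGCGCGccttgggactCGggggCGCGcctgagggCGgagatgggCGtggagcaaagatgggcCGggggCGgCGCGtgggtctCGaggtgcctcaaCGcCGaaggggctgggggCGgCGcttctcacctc
Cdkn2a downstream start: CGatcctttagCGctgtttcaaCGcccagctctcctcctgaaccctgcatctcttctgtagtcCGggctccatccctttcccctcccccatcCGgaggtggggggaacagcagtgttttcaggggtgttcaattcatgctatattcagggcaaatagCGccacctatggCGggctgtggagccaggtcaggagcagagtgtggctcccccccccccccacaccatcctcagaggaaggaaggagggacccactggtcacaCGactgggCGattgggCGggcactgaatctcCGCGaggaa

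**Figure D2:**
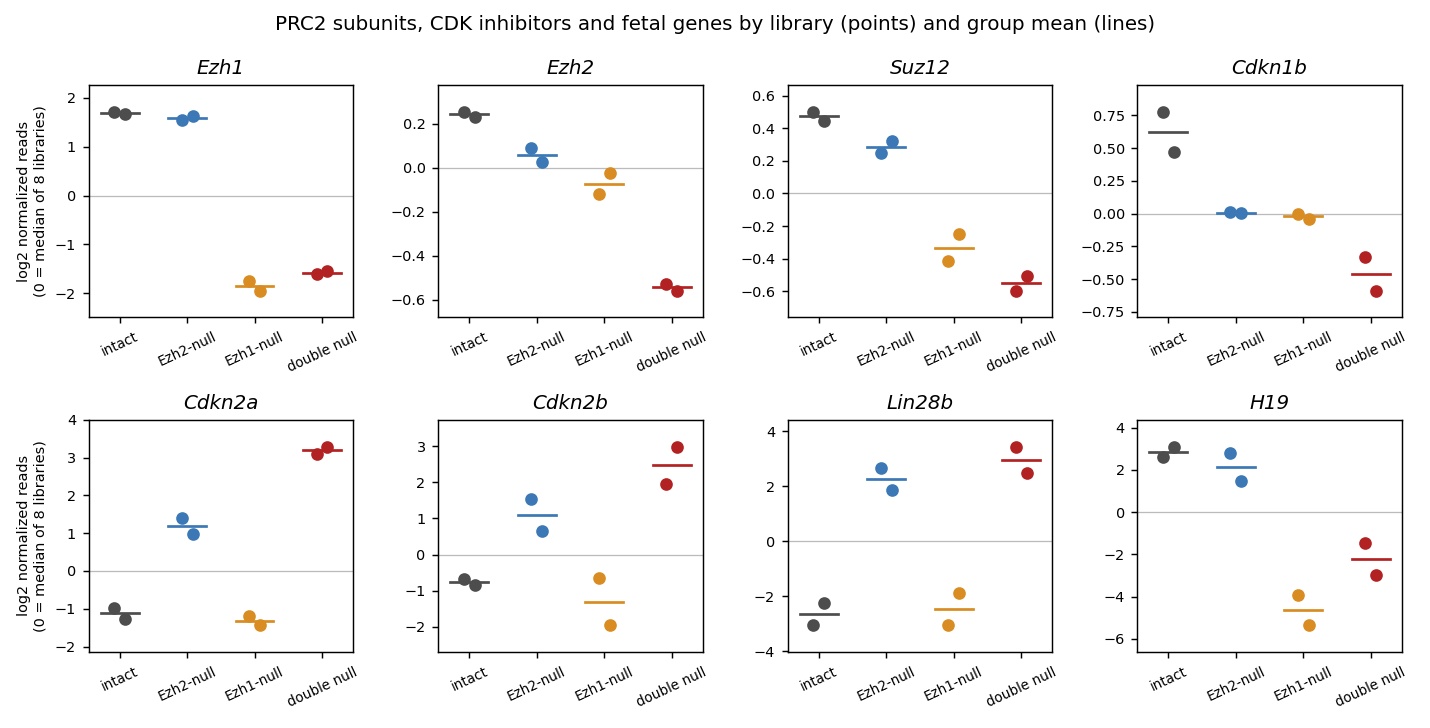
Each panel shows 1 gene, with the 4 groups on the x axis and log2 normalized reads relative to the median of the 8 libraries on the y axis. Points are libraries (2 per group) and lines are group means. Cdkn2a is highest in the double-null libraries (3.10 and 3.29), Ezh1 is low in both Ezh1-null groups, and H19 is low in both Ezh1-null groups but lowest without Ezh1 alone (-3.93 and -5.37).

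Genes of the fetal programme did not move as a group. Of 10 tested, 3 were called higher and 3 lower, and as few as 1 in each direction without intact 2. Lin28b, an RNA-binding protein that marks fetal blood progenitors, lay at -3.06 and -2.25 in intact and at 3.45 and 2.49 in double-null libraries. It was 5.62 ± 0.59 higher, 49.3-fold (adjusted p = 0.00572), with intact 1 at the detection floor, so the fold depends on the floor. The Ezh2-null libraries (2.67 and 1.86) overlapped the double-null range, and the Ezh1-null libraries (-3.06 and -1.86) overlapped the intact range. Lin28a rose by 1.03 ± 0.14 (adjusted p = 0.0096) and lost the call without intact 2. It rose as far in the Ezh1-null libraries (1.19 over intact) and not in the Ezh2-null ones (-0.04). Igf2bp2 was called at 1.10 ± 0.25 (adjusted p = 0.0333) and lost the call without any 1 of the compared or Ezh1-null libraries (adjusted p up to 0.134) and without the filter on low values (0.0835).

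On the lower side, H19, an imprinted noncoding RNA of fetal tissue, lay at 2.59 and 3.11 in intact and at -1.47 and -2.98 in double-null libraries (-5.08 ± 0.78, adjusted p = 0.0128). It lost the call without double-null 2, intact 1 or intact 2 (adjusted p up to 0.0656). Igf2bp3, an RNA-binding protein that Lin28b is known to raise in fetal progenitors, was lower (-0.90 ± 0.11, adjusted p = 0.00748). Its difference from intact was nearly the same in the Ezh1-null libraries (-0.88). Arid3a was called at -0.60 ± 0.14 (adjusted p = 0.034), and without any library but double-null 1 it was not called (adjusted p up to 0.134), nor in the fit of the 4 compared libraries alone (0.0958). Igf2, which shares the imprinted locus of H19, differed by -0.96 ± 0.33 (adjusted p = 0.092). Igf2bp1 (0.98 ± 0.51, adjusted p = 0.226), Hmga1 (-0.43 ± 0.14, adjusted p = 0.0884) and Hmga2 (0.80 ± 0.76, adjusted p = 0.485) were not called.

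Interferon-stimulated genes were the list with the largest share of calls among those with at least 10 tested members. Of 37 tested, 32 were called higher and none lower, against 13.2% of all genes called higher, and the median difference was 2.11, against -0.002 over all tested genes. The count was 20 without intact 1, 21 without double-null 2, and 22 without either intact 2 or double-null 1. For 31 of the 37, both double-null libraries were above all 6 other libraries, a state that held for 7.81% of all tested genes. The list's median per library was -0.79 and -0.78 in intact, 0.00 and 0.29 in Ezh2-null, -0.14 and -0.24 in Ezh1-null, and 1.03 and 1.11 in double-null cells. The medians of the 2 groups that lacked 1 enzyme thus lay between those of the intact and double-null groups.

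Members named by the rule included antiviral effectors and sensors. Rsad2, the antiviral enzyme viperin, lay at -1.24 and -1.43 in intact and at 2.35 and 2.29 in double-null libraries, a 12.6-fold rise (3.65 ± 0.20, adjusted p = 0.00197). Oas3, a sensor of double-stranded RNA, lay at -1.52 and -1.23 in intact and at 1.96 and 2.01 in double-null libraries (3.36 ± 0.17, adjusted p = 0.00196). Ifi27l2a lay at -1.11 and -1.07 and rose to 2.38 and 2.37 (3.46 ± 0.19, adjusted p = 0.00197). In each of these 3 genes both double-null libraries stood above all 6 others and close together.

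Rtp4 had a larger fold, 47.2-fold (5.56 ± 0.40, adjusted p = 0.00307). It lay at -3.74 and -3.59 in intact, 1.68 and 2.12 in double-null, and -0.13 and 0.54 in Ezh2-null libraries. Bst2, the tethering factor that holds viruses on the cell, rose by 1.15 ± 0.15 (adjusted p = 0.00892) and lost the call without intact 1 (adjusted p = 0.0543). The difference between the tamoxifen effects in Ezh1-null and Ezh1-present cells (the interaction term of the fit) was not called for Rsad2 (0.82, adjusted p = 0.287), Oas3 (0.59, adjusted p = 0.34), Ifi27l2a (1.01, adjusted p = 0.204) or Rtp4 (-1.61, adjusted p = 0.297).

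The promoters of 3 of these genes are shown because they share the core letters of the interferon response element, GAAA then any 2 bases then GAAA, searched on both strands and shown in capitals. Of 26 interferon-stimulated genes with a RefSeq promoter, 17 (65.4%) held it within the 300 bases of at least 1 start, against 3.78% of the 13735 tested genes with a promoter and 3.44% of all promoters in the table. The match describes the letters and does not show a site in use. Coordinates in GRCm38.p6 are chr12:26456403-26456702 for Rsad2, chr5:120777610-120777909 for Oas3 and chr8:71537423-71537722 for Bst2, all on the minus strand, and overlapping matches in Bst2 run together.
Rsad2: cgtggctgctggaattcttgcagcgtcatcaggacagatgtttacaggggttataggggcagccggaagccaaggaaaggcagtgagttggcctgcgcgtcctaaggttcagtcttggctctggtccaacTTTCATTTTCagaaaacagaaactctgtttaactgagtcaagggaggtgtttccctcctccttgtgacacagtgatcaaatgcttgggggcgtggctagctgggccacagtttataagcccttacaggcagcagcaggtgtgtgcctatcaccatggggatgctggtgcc
Oas3: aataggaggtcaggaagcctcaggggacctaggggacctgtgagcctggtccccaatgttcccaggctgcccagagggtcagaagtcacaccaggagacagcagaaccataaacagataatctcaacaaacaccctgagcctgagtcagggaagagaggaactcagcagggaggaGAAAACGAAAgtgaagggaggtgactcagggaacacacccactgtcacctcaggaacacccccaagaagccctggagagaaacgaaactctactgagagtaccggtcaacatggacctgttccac
Bst2: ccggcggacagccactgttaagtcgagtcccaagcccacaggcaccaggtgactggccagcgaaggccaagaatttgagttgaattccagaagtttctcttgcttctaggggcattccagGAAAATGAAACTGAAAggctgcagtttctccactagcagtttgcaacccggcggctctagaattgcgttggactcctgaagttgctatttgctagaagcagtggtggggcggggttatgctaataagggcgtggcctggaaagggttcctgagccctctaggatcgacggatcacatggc

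Genes of MHC class I antigen presentation moved with the interferon genes in part. Of 22 tested, 8 were called higher and 2 lower, against 13.2% and 10.2% of all tested genes, with a median difference of 0.57. Beta-2 microglobulin (B2m), the invariant chain of class I molecules, lay at -0.31 and -0.29 in intact and at 0.54 and 0.51 in double-null libraries (0.83 ± 0.09, adjusted p = 0.0061). The heavy chains H2-K1 (1.38 ± 0.17, adjusted p = 0.00726) and H2-D1 (1.26 ± 0.14, adjusted p = 0.00582) rose, with both double-null libraries above all 6 others. They are members of a family of similar sequence, so reads may be split among its genes. Tapbp, which loads peptides onto class I, rose by 0.87 ± 0.11 (adjusted p = 0.00823) and was as high in the Ezh1-null libraries (0.35 and 0.35) as in the double-null ones (0.37 and 0.32). The count of higher calls was 4 without double-null 1, intact 1 or intact 2 and 5 without double-null 2, and the 2 lower calls were lost without any 1 of the compared libraries. These were Tap2 (-0.80 ± 0.13, adjusted p = 0.0152), a peptide transporter subunit, and Psmb8 (-0.57 ± 0.13, adjusted p = 0.0355), an immunoproteasome subunit, named after their values were seen. Of 11 class II genes none was called higher and 2 were called lower, while 8 of the 11 differences were above 0. Higher calls numbered 3 without either Ezh2-null library and 4 in the fit of the 4 compared libraries alone. The lower ones were H2-Ob (-1.97 ± 0.23, adjusted p = 0.00692) and H2-DMb2 (-2.23 ± 0.36, adjusted p = 0.0148), the second lost without any 1 of the compared libraries (adjusted p up to 0.076).

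The called DNA replication genes were all lower, by small amounts. Of 32 tested, 13 were called lower and none higher, against 10.2% of all genes called lower, with a median difference of -0.34. For 26 of the 32 both double-null libraries were below all 6 others, which held for 8.40% of tested genes. The list's median was 0.01 and 0.06 in intact, 0.07 and 0.05 in Ezh2-null, -0.01 and 0.04 in Ezh1-null, and -0.29 and -0.27 in double-null libraries, and the double-null medians were the lowest of the 8. The calls were fragile, since 1 was left without intact 1, and 2 without intact 2, double-null 1 or double-null 2. The fit of the 4 compared libraries alone left 2, 6 were left without either Ezh1-null library, and 18 were made after quantile normalization.

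Within that list, the replicative helicase subunits led. Mcm6 lay at 0.17 and 0.16 in intact and at -0.48 and -0.48 in double-null libraries (-0.65 ± 0.08, adjusted p = 0.00788). Mcm3 was called at -0.61 ± 0.08 (adjusted p = 0.0102) and lost the call without double-null 2 or intact 1 (adjusted p up to 0.0562). The polymerase subunits Pole (-0.64 ± 0.10, adjusted p = 0.0121) and Pola1 (-0.55 ± 0.10, adjusted p = 0.0211) were called as well. Pole lost the call without double-null 1, intact 1 or intact 2 (adjusted p up to 0.0596) and in the fit of the 4 compared libraries alone (0.0514), and Pola1 without any 1 of the compared libraries (adjusted p up to 0.0959) or in that fit (0.0581).

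Other growth genes were less uniform. Of 29 ribosome biogenesis genes, 8 were called lower and none higher (median -0.34), and with 1 library left out there were 1 (without intact 2, double-null 1 or double-null 2) or 3 calls. Ubtf, a factor for transcription of ribosomal RNA genes, had the firmest fall (-1.66 ± 0.14, adjusted p = 0.00364), at 1.04 and 0.81 in intact and -0.69 and -0.79 in double-null libraries. The Ezh1-null libraries were also low for this list (-0.22 and -0.13, against -0.24 and -0.06 in double-null and 0.06 and 0.33 in intact cells). Of 30 mitosis and G2/M genes, 1 was called higher and 2 lower. The higher one, the cyclin Ccnb2 (0.41 ± 0.10, adjusted p = 0.0428), lost the call without any 1 of the 8 libraries (adjusted p up to 0.156). The lower ones were the spindle checkpoint kinase Bub1b (-0.74 ± 0.09, adjusted p = 0.00723) and the spindle motor Kif11 (-0.66 ± 0.10, adjusted p = 0.0133), which lost the call without double-null 2 or intact 2 (adjusted p up to 0.063) and in the fit of the 4 compared libraries alone (0.0554).

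**Figure D3:**
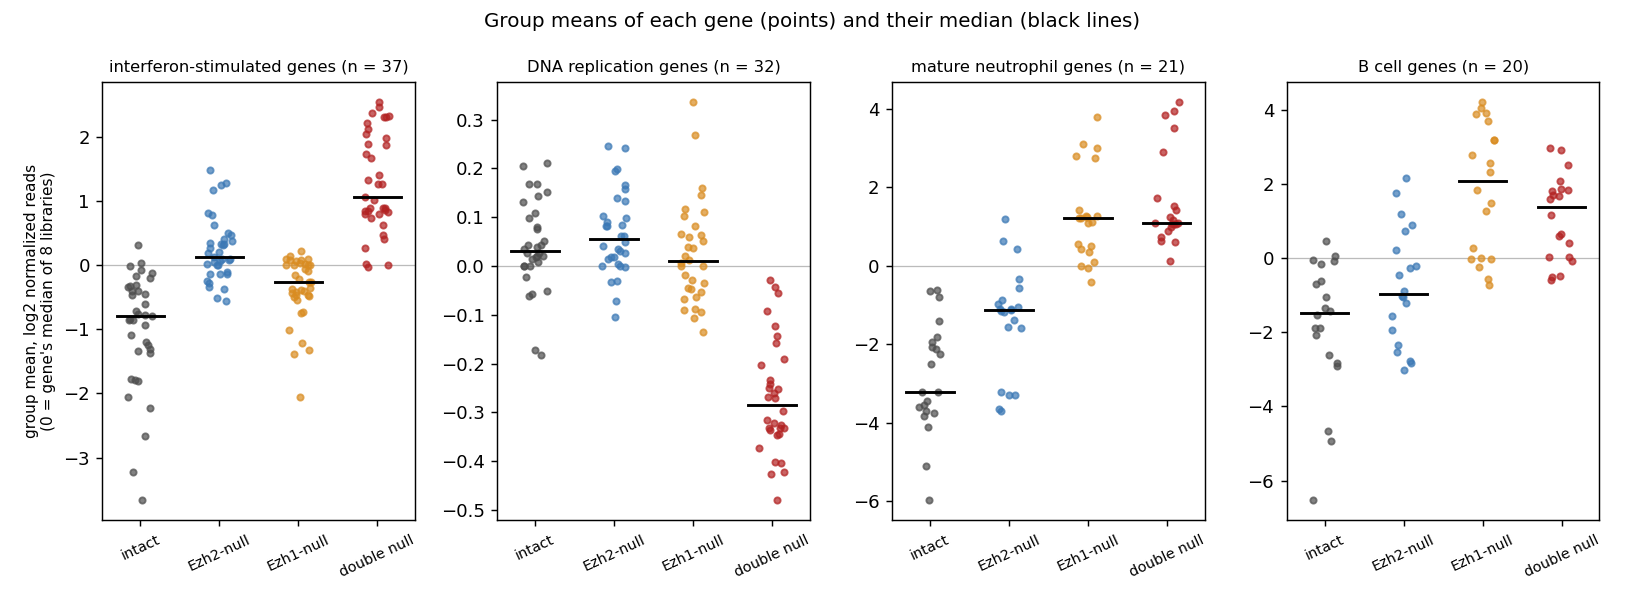
Each point is the mean of 1 gene over the 2 libraries of a group, as log2 normalized reads relative to the gene's median over 8 libraries (y axis), and black lines are the medians of the points. Panels hold 37 interferon-stimulated, 32 DNA replication, 21 mature neutrophil and 20 B cell genes. In the first 2 panels the double-null group stands apart from the other 3, and in the last 2 the Ezh1-null and double-null groups are both high.

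Neutrophil and granule genes gave many higher calls, and their medians over intact were no smaller in Ezh1-null cells. Of 21 mature neutrophil genes 16 were called higher and none lower (median 4.28), and of 12 primary granule genes 9 were called higher and none lower (median 1.31). The medians of these lists in the Ezh1-null minus intact difference, which shares the intact libraries, were 4.44 and 1.77. For 2 neutrophil genes and no primary granule gene were both double-null libraries above all 6 others. The number of neutrophil calls was 4 without intact 1, 6 without double-null 1, 9 without intact 2 and 13 without double-null 2, and primary granule calls numbered 6 without intact 1. In bulk RNA, more cells of a type and more RNA per cell cannot be told apart. The intact libraries held the lowest list medians of the 8 for neutrophil (-3.53 and -2.89), primary granule (-1.03 and -0.72), B cell (-1.29 and -1.60) and mast cell and basophil genes (-2.01 and -1.51). The part of such cells in the other differences was not tested.

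The stefin A genes, protease inhibitors of the neutrophil lineage, included the 2 largest named rises. Stfa2 lay at -5.34 and -6.62 in intact and at 4.93 and 2.97 in double-null libraries (9.92 ± 0.85, adjusted p = 0.00381), and at 2.55 and 3.03 in Ezh1-null ones. Stfa2l1 rose by 8.95 ± 1.00 (adjusted p = 0.00641) and BC100530, another gene of the cluster, by 7.63 ± 0.69 (adjusted p = 0.00428). Stfa3 rose by 7.10 ± 0.93 (adjusted p = 0.00866) and lost the call without intact 1 (adjusted p = 0.0521). These genes are near copies of each other, so the share of reads that each received is uncertain. They lie in the longest run of neighbouring tested genes called the same way, 9 genes from Stfa2l1 to Stfa3 on chromosome 16 (36156811 to 36455392), with rises from 4.97 to 9.92.

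The transcription factor Cebpe, needed for late granules, rose by 5.08 ± 0.57 (adjusted p = 0.00645). Elane, the neutrophil elastase gene, lay at -4.39 and -3.38 in intact and at 1.20 and 1.03 in double-null libraries (5.00 ± 0.42, adjusted p = 0.00369). Prss57 (3.83 ± 0.29, adjusted p = 0.00312), Mpo, the myeloperoxidase gene (1.85 ± 0.17, adjusted p = 0.00435), and Igsf6 (1.35 ± 0.16, adjusted p = 0.0067) followed. In all 5 genes the Ezh1-null libraries lay at or above the double-null range or overlapped it.

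Early lymphoid and basophil genes behaved alike. Of 20 B cell genes, 9 were called higher and none lower, with 4 called without intact 1 or intact 2, 6 without double-null 1 and 7 without double-null 2. Dntt, which adds untemplated bases at antigen receptor joints, lay at -5.35 and -4.54 in intact, 2.20 and 1.52 in double-null and 3.61 and 3.77 in Ezh1-null libraries (6.80 ± 0.34, adjusted p = 0.00196). Rag1, the recombinase subunit, was at the floor in both intact libraries and at least 73.9-fold higher in double-null ones, taking 3 counts per library as the floor (adjusted p = 0.00339). Ebf1 (6.49 ± 0.60, adjusted p = 0.00435) and Vpreb1 (5.88 ± 0.42, adjusted p = 0.00307), an early B cell factor and part of the surrogate light chain, rose with them.

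Among 13 mast cell and basophil genes, 8 were called higher and none lower. The median was 3.31, or 1.56 with genes at the floor set to their bound, and 3 calls were left without double-null 1 and 2 without double-null 2, intact 1 or intact 2. Ms4a2, a chain of the high-affinity IgE receptor, rose by 8.87 ± 1.03 (adjusted p = 0.00675), from -6.83 and -5.62 to 1.96 and 3.32. Prss34, a basophil protease, rose by 8.41 ± 0.72 (adjusted p = 0.00381). Without bounds for the floor, the list's median over intact was 2.91 in Ezh1-null and 1.96 in Ezh2-null libraries. Gata2 and Cpa3 stood 5.45 and 5.58 over intact in the Ezh1-null libraries. Gata2 was called at 6.28 ± 0.95 (adjusted p = 0.0121) and lost the call without double-null 2, intact 1 or intact 2 (adjusted p up to 0.0667), and Cpa3 was called at 6.03 ± 1.02 (adjusted p = 0.0162) and lost it without any 1 of the compared libraries (adjusted p up to 0.0782).

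Calls for the other lineages were mixed, and they stand beside 13.2% of all tested genes called higher and 10.2% called lower. Of 19 erythroid genes 1 was called, Gata1 (4.64 ± 1.09, adjusted p = 0.0365), lost without any 1 of the compared or Ezh1-null libraries (adjusted p up to 0.143), after quantile normalization (0.0542) and without the filter on low values (0.101). There were 4 erythroid calls, all higher, without either Ezh2-null library and 7 in the fit of the 4 compared libraries alone. The erythroid list's median differed between the intact libraries themselves (-2.84 and -0.96). Of 22 stromal and endothelial genes 2 were called lower and none higher: Cdh5, the endothelial cadherin (-1.47 ± 0.26, adjusted p = 0.0179), and Pdgfrb, a pericyte receptor (-1.35 ± 0.31, adjusted p = 0.034). Cdh5 lost the call without double-null 1, intact 1 or intact 2, and Pdgfrb without any 1 of the compared or Ezh2-null libraries (adjusted p up to 0.141). Of 25 T and NK cell genes 6 were called higher and 1 lower, among the former Klrd1 (4.23 ± 0.47, adjusted p = 0.00612) and Nkg7 (4.40 ± 0.57, adjusted p = 0.00858), and the highest values of this list were in Ezh2-null cells (0.69 and 2.01, against 0.28 and 0.27 in double-null cells). Monocyte and macrophage genes were divided, with 10 of 25 called higher and 4 lower: Ly6c2, an inflammatory monocyte antigen, rose by 2.76 ± 0.11 (adjusted p = 0.00115), and Itgax, the CD11c gene, fell by 3.10 on the log2 scale (SE 0.13, adjusted p = 0.0013). Higher monocyte calls numbered 4 without intact 1, double-null 1 or double-null 2 and 6 without intact 2, lower ones 7 without either Ezh1-null library and 2 without intact 1, intact 2 or double-null 2. T and NK cell calls numbered 4 without intact 1, intact 2 or double-null 1, and 9 without either Ezh1-null library.

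**Figure D4:**
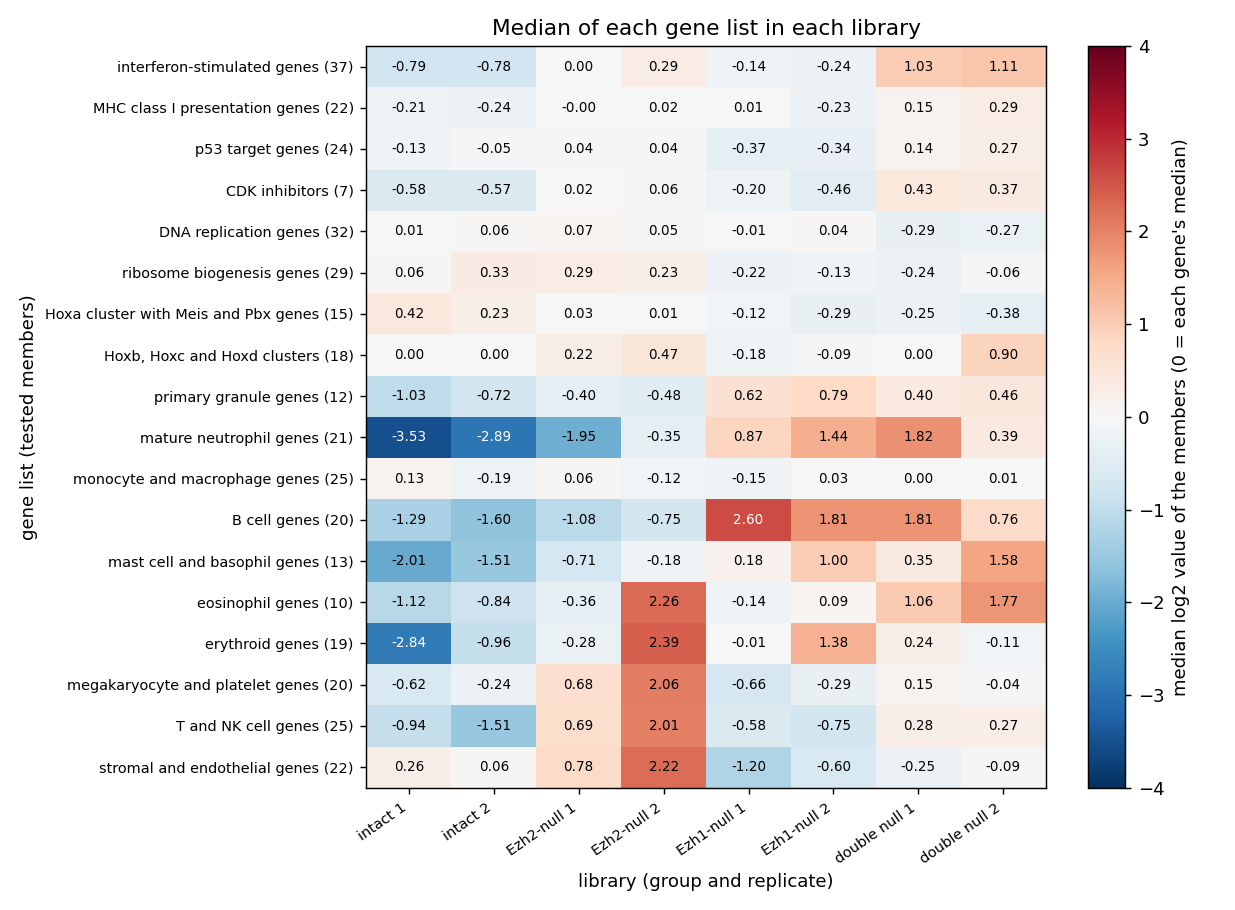
Rows are gene lists with the number of tested members, columns are the 8 libraries, and each cell is coloured and labelled with the median log2 value of the members relative to each gene's median. The intact libraries are lowest for neutrophil genes (-3.53 and -2.89), and the double-null libraries are highest for interferon-stimulated genes (1.03 and 1.11) and lowest for DNA replication genes (-0.29 and -0.27).

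Meis1, a cofactor of Hoxa proteins in leukaemic self-renewal, was lower. It lay at 1.05 and 0.85 in intact, 0.46 and 0.37 in Ezh2-null, -0.44 and -0.37 in Ezh1-null and -1.10 and -1.01 in double-null libraries. Its difference of -2.01 ± 0.11 is 4.03-fold (adjusted p = 0.00196), and the 4 groups did not overlap. Of 15 genes of the Hoxa cluster with the Meis and Pbx genes, 5 were called lower and 1 higher, with a median of -0.58. Lower calls numbered 2 without double-null 1 and 1 without intact 1, intact 2 or double-null 2. Hoxa10 (-0.83 ± 0.16, adjusted p = 0.0221), Hoxa11 (-1.23 ± 0.24, adjusted p = 0.0221) and Hoxa3 (-1.15 ± 0.24, adjusted p = 0.0286) were called and lost the call without intact 1, intact 2 or double-null 2, and Hoxa10 and Hoxa3 also without double-null 1 (adjusted p up to 0.126). Hoxa11 was also lost in the fit of the 4 compared libraries alone (0.0774), and Hoxa11 and Hoxa3 without the filter on low values (0.0579 and 0.0725).

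Stem and progenitor genes went both ways, with 7 of 25 called higher and 4 lower, against 13.2% and 10.2% of all tested genes. There were 1 higher call without intact 1, 2 without double-null 2 and 3 without intact 2, and 2 lower calls without any of these 3. Sox4, a factor that cooperates in leukaemia, was lower (-1.24 ± 0.13, adjusted p = 0.00587), and both double-null libraries were below all 6 others. Flt3, a receptor of early progenitors, was called at -2.78 ± 0.50 (adjusted p = 0.0186) and lost the call without any 1 of the compared libraries (adjusted p up to 0.0884) or without the filter on low values (0.0537). Prom1, the CD133 gene, was higher (3.51 ± 0.41, adjusted p = 0.00711), as was Fli1 (0.92 ± 0.12, adjusted p = 0.00893), which lost the call without intact 1. Both rose as far in the Ezh1-null libraries, by 3.74 and 1.08 over intact.

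Developmental transcription factors gave a count of calls that depended on single libraries. Of 91 developmental transcription factors outside the Hox clusters in the table, 65 passed the filter. Of these 12 were called higher (6 without double-null 1, double-null 2 or intact 2, and 7 without intact 1), against 13.2% of all genes, and 2 lower (0 without double-null 2, 4 without intact 2, and 3 without either Ezh2-null library). For 17 both double-null libraries were above all 6 others, against 7.81% of all genes, and for none below. A gene that passed the filter only through the double-null libraries had to be higher there. How many of the 17 did so is not given here, so they are not read as a result. In 13 of the 65 genes the intact libraries were wholly at the floor, and in 6 the double-null ones. The list's median difference was 0.54, or 0.00 with genes at the floor set to their bound. Otx2, a factor of brain and eye development, was at the floor in the 6 other libraries and 3.55 and 4.12 above it in the double-null ones. It was at least 2.69-fold higher against 3 counts per library, and since it passed the filter only through the double-null libraries, its direction was fixed by that filter and no test is given. Tbx18, a T-box factor, was at the floor in the intact libraries and at 1.58 and 1.62 in the double-null ones (adjusted p = 0.00421), which is under 3 counts, so no fold is given.

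Pitx1, a limb and pituitary factor, was at the floor in both intact libraries (-0.51) and at 6.33 and 6.54 in double-null ones, with 1 Ezh1-null library at 3.26. It was at least 23.2-fold higher (adjusted p = 0.0174) and lost the call without any 1 of the compared libraries (adjusted p up to 0.081) with a variance trend (adjusted p = 0.986) and without the filter on low values (0.0521). Pax8 (2.39 ± 0.21, adjusted p = 0.00413) and Eya1 (2.95 ± 0.37, adjusted p = 0.00806) were higher too, Pax8 with still higher values in the Ezh1-null libraries (1.35 and 1.84, against 1.10 and 0.88) and Eya1 in the Ezh2-null ones (0.96 and 1.80, against 0.18 and 0.37). In the Hoxb, Hoxc and Hoxd clusters, 5 of 18 tested genes were called higher and none lower, and 10 more did not pass the filter. The count was 2 without double-null 2 and 3 without intact 1 or any 1 of the Ezh1-null and Ezh2-null libraries. Hoxb3 lay at -1.40 and -1.26 in intact and at 0.29 and 0.76 in double-null libraries (1.86 ± 0.17, adjusted p = 0.00431). Hoxc9 was higher by 3.72 ± 0.34 (adjusted p = 0.00435), a size that depends on the floor, where intact 1 lay.

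Germ line genes gave 3 higher and 6 lower calls of 28 tested, and the 12 positive differences stood against 16 negative ones. For this list and the Wnt list below, the shares of all tested genes were 13.2% called higher and 10.2% called lower. There was 1 higher call without double-null 1, double-null 2 or intact 1, there were 6 without either Ezh2-null library, and 2 lower calls without double-null 1 or intact 1 and 3 without intact 2. Dmrt1, a testis factor, lay at -1.16 and -0.36 in intact and at 5.22 and 5.87 in double-null libraries, while the other 4 ranged from -1.16 to 0.42 (6.30 ± 0.55, adjusted p = 0.00396). Intact 1 lay at the floor, on which this size depends. It was not called with a variance trend (adjusted p = 0.0647). The meiotic genes Tex14 (-2.49 ± 0.30, adjusted p = 0.00748) and Dmc1 (-1.24 ± 0.11, adjusted p = 0.00428) were lower. Of 36 Wnt ligands, receptors and antagonists, 6 were called higher and 5 lower, with 3 higher without double-null 2, intact 1 or intact 2, 2 lower without double-null 2 or intact 1 and 3 lower without intact 2. Wnt7a, 1 of the 5 lower calls, lay at 1.83 and 2.39 in intact libraries and at the floor in all 6 others. It passed the filter only through the intact libraries, so its direction was fixed and its call is not read as a result. The secreted antagonist Sfrp2 rose by 3.97 ± 0.33 (adjusted p = 0.00367) and the Wnt deacylase Notum by 1.57 ± 0.18 (adjusted p = 0.00654), both above all 6 others in double-null cells, and the receptor Ryk by 3.47 ± 0.27 (adjusted p = 0.00331).

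Stress and signalling genes also held calls, to be read beside 13.2% of all tested genes called higher and 10.2% called lower. Of 16 immediate early genes, 5 were called higher and 1 lower, with 3 higher without double-null 1 or intact 1. The AP-1 subunits Fos (2.77 ± 0.14, adjusted p = 0.00196), Jun (1.69 ± 0.16, adjusted p = 0.00443) and Fosb (2.17 ± 0.25, adjusted p = 0.00659) rose. Fos lay at -0.98 and -0.90 in intact, 0.57 and 0.65 in Ezh1-null, and 1.72 and 1.93 in double-null libraries. Of 24 p53 target genes 8 were called higher and 1 lower (median 0.41), and no higher call was left without intact 2, 1 without double-null 2, 2 without double-null 1 and 3 without intact 1. Among the higher ones were Trp53inp1 (1.36 ± 0.21, adjusted p = 0.0122), lost without double-null 1, double-null 2 or intact 2 (adjusted p up to 0.0618), and Perp (4.75 ± 0.78, adjusted p = 0.0152), lost without any 1 of the compared libraries (adjusted p up to 0.0784). Pmaip1, the apoptosis inducer Noxa, was the lower one (-0.95 ± 0.10, adjusted p = 0.00607), with the Ezh1-null libraries lower still (-1.20 and -1.06).

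**Figure D5:**
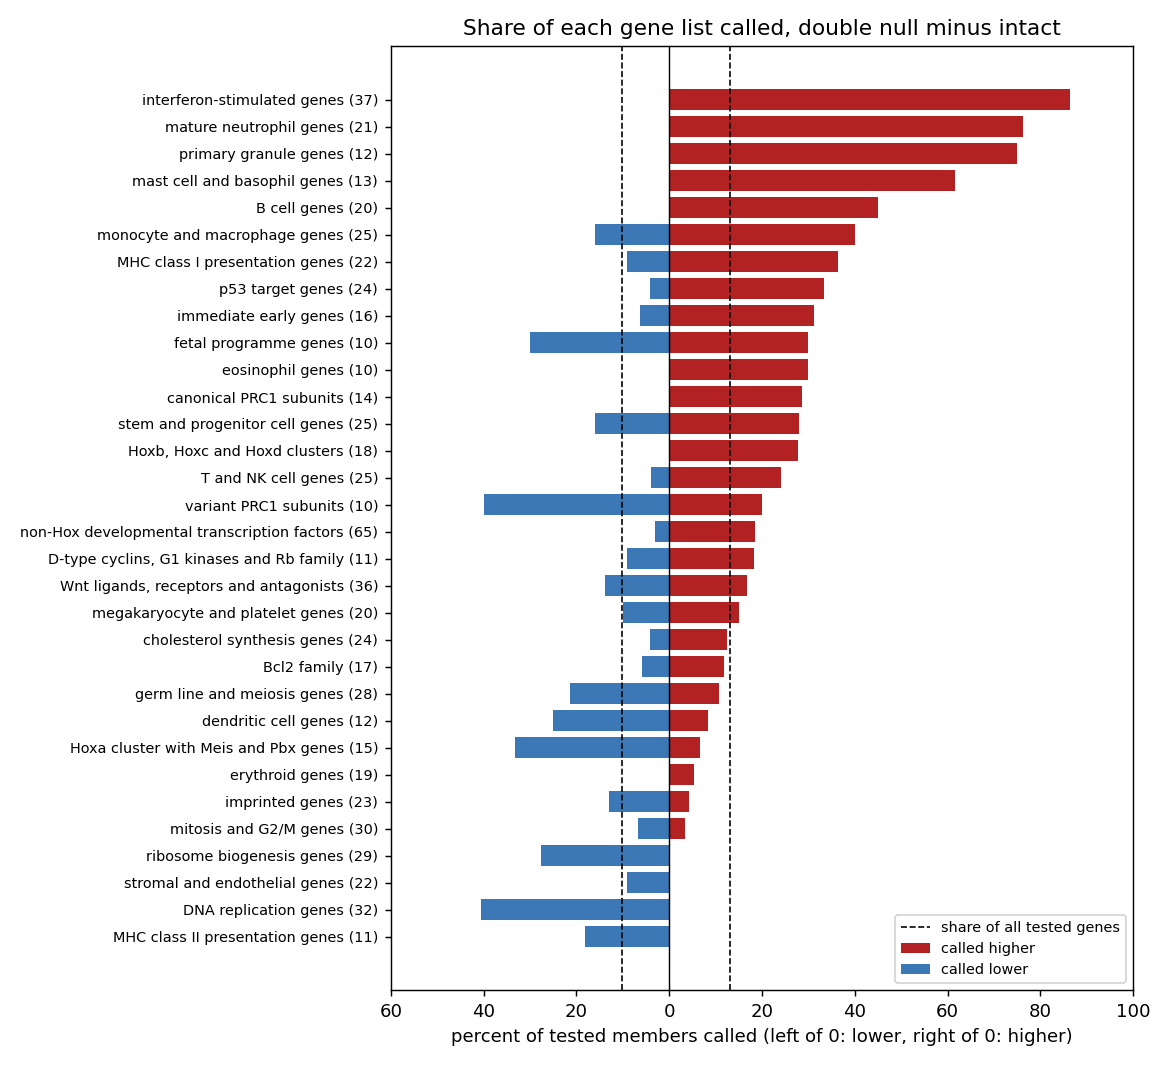
Bars give the percent of tested members of each gene list that were called higher (right of 0) or lower (left of 0) in double-null against intact libraries, with the number of tested members in brackets, for lists with at least 10. Dashed lines mark the shares of all tested genes, 13.2% higher and 10.2% lower. Interferon-stimulated genes (32 of 37 higher) stand at the top and DNA replication genes (13 of 32 lower) near the bottom.

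Several of the largest differences lay outside these lists. Tmem178, a membrane protein gene, lay at -5.19 and -4.74 in intact, 2.88 and 3.10 in double-null and -0.56 to 0.64 in the other 4 libraries (7.96 ± 0.20, adjusted p = 0.000629). Fgf3, a growth factor of embryonic development, was called at 6.60 ± 0.98 with intact 1 at the floor (adjusted p = 0.0117) and lost the call without double-null 2 or intact 1 (adjusted p up to 0.0651). Esx1, a homeobox gene of placenta and testis, was at the floor in both intact libraries and at least 66.5-fold higher in double-null ones (adjusted p = 0.00723). Prdm16, a regulator of stem cells and fat, rose by 7.10 ± 0.92 (adjusted p = 0.00853), with the Ezh1-null libraries as high (1.26 and 2.27, against 0.95 and 1.57), and was not called with a variance trend (0.0758).

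Among the largest falls were Actg2, a smooth muscle actin (-6.48 ± 0.49, adjusted p = 0.00312), Olfr215, an olfactory receptor gene (-4.62 ± 0.28, adjusted p = 0.00234), and Disp2 (-4.72 ± 0.46, adjusted p = 0.0046), in each of which the double-null libraries were below all 6 others. Actg2 lay at 3.59 and 2.85 in intact, 1.62 and 1.54 in Ezh2-null, -2.31 and -1.54 in Ezh1-null and -2.70 and -3.83 in double-null libraries. Pdcd1, the PD-1 checkpoint receptor gene, was at the floor in the Ezh1-null and double-null libraries and at least 3.33-fold lower than in intact cells (adjusted p = 0.00413).

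Promoter composition differed between the modest and the large differences. Among the 13735 tested genes with a RefSeq promoter (76.1% of 18051), the median number of CpG in 300 bases was 18. It was 18 for genes called higher and 20 for genes called lower, and 8 for the 270 matched genes called higher by at least 8-fold and 5 for the 46 called lower by at least 8-fold. These counts are descriptions of the sets. The mature neutrophil and mast cell lists had medians of 3 and 2.5. The promoter of Ms4a2 is shown as an example of a large rise at a start with 2 CpG, in capitals (chr19:11623670-11623969, minus strand, GRCm38.p6). It can be set beside the 45 at the upstream start of Cdkn2a and the 12 at its downstream start.
Ms4a2: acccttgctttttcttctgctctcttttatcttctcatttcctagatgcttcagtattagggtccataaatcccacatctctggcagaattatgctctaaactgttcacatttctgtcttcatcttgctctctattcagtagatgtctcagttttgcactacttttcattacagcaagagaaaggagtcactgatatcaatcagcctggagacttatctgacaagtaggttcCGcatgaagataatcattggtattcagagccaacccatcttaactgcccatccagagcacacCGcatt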

How the data were processed

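RNA sequencing values of 8 libraries (4 groups of 2) were used as deposited. Per the file headers, the authors' table is a gene-level fold-change list filtered on raw values (percentiles 20 to 100). Its values are log2 normalized reads: as deposited, each row was centred on its median (largest row median 9.55e-07) and, from the values, low reads were set to a floor of 1. The build was mm10 per the submitters' processing notes. The sources used here do not name an aligner, counter, strand setting or scaling, so reads of overlapping or near-identical genes may be shared.

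All 8 libraries were fitted in limma 3.58.1 (R 4.3.3) with 1 coefficient per group and empirical Bayes moderation, on 18051 rows with at least 2 libraries above the row's floor. Calls took a Benjamini-Hochberg adjusted p under 0.05. The fit was tested on simulated data. A group wholly at the floor was set to 3 counts per library for a fold bound, with 1 count taken as the commonest low step. Such bounds cover counting error only, and libraries at the floor cannot vary, so their p may be too small. Total counts are not in the values, so depth is known only through these steps. Gene lists (37 with 793 genes, 706 tested) and the members were chosen with earlier results of these data known.

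Genes named were all PRC2 core subunits, CDK inhibitors and fetal genes, the 12 largest called rises and falls with neither group at the floor, the 5 largest bounds each way, and up to 4 called members of each list with the smallest adjusted p. Of these a part is printed, and gene models without a name were only counted. A result for a withheld item is not reported here. Promoters came from RefSeq (GRCm38.p6), matched by gene ID. Alternatives were the samples in the fit, a replicate block, filters on low values, scaling, pseudocount, moderation and leaving out each library. Replicate numbers are not said to pair libraries.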

Additional observations from a re-analysis of the deposited data

Results flagged for a closer look

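For 4 named genes a difference in the effect of Ezh2 loss with tamoxifen between cells without and with Ezh1 was called. For Otx2 the same test is void. The test was the interaction term of the limma fit, (double null minus Ezh1-null) minus (Ezh2-null minus intact), with n = 2 libraries per group and Benjamini-Hochberg adjustment over all tested genes. It was called for 0.476% of them. The term was fitted in the main setting only, so the alternatives described below do not cover its calls. All libraries treated with tamoxifen were labelled Ezh2-/- and all oil libraries Ezh2+/+, so the 2 cannot be told apart here.

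Otx2, a head and eye transcription factor, had a term of 3.835. It lay above the floor in the double-null libraries alone (3.55 and 4.12) and passed the filter through them, so the sign was fixed by the filter, its other libraries could not vary, and the test is void for it. Notum, a secreted Wnt inhibitor, had a term of 2.46 (adjusted p = 0.041), with 1.81 and 1.52 in double-null, -0.03 and -0.35 in Ezh1-null, -0.38 and -0.65 in Ezh2-null and 0.15 and 0.03 in intact libraries. Dntt, the lymphoid terminal transferase, had a term of -5.209 (adjusted p = 0.0373), being higher in Ezh2-null (-1.60 and -1.52) than in intact libraries and lower in double-null (2.20 and 1.52) than in Ezh1-null ones (3.61 and 3.77). Itgax, the CD11c gene, had a term of -1.744 (adjusted p = 0.041), with -2.38 and -2.47 in double-null against -0.84 and -0.57 in Ezh1-null libraries and little between Ezh2-null and intact ones. Mpeg1, the macrophage pore-forming protein perforin-2, had a term of -1.386 (adjusted p = 0.0475) and lay at -1.83 and -1.66 in intact, -0.22 and -0.12 in Ezh2-null, 0.19 and 0.12 in Ezh1-null and 0.41 and 0.28 in double-null libraries, so its rise beside tamoxifen was smaller without Ezh1.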

How the results depend on the processing

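Among 19 alternatives no named gene with a call changed direction, and 80 of the 154 named and called genes were called in all 8 fits that left out 1 library. A fit of the 4 compared libraries alone called 2514 genes; genes called higher numbered 1534 and genes called lower 980, and 2160 of these were also called, in the same direction, by the fit of all 8. Leaving out 1 library gave 1418 to 3726 calls, 909 to 2200 of them higher and 509 to 1526 lower. A library left out leaves 1 in its group, which is assumed to vary like the other groups. With the replicate number as a block there were 3377 calls, of which 3191 were also called without it. Deviations of same-numbered libraries from their group means correlated at -0.062 to 0.079 across genes, so the values show no common shift by replicate number. These correlations cannot tell whether libraries were paired by animal or batch, which the labels do not state. Of the list medians under the alternatives, 627 stayed within the SD of that list's medians between replicate libraries, and 76 moved by more. Counts of called members per list are not among these values. Precision is limited by 2 libraries per group (4 residual degrees of freedom), and fold limits by the value of 1 count near the floor.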

Other observations

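The remaining gene lists are read against 13.2% of all tested genes called higher and 10.2% called lower. Of 10 eosinophil genes 3 were called higher and none lower. They encode granule proteins: Epx (5.80 ± 1.11), Prg2 (4.43 ± 0.86) and Prg3 (2.69 ± 0.53), with limma adjusted p values of 0.0219, 0.0228 and 0.0238, and each call was lost without any 1 of the 4 compared libraries (adjusted p up to 0.105). Eosinophil calls numbered 6 without either Ezh2-null library and 5 in the fit of the 4 compared libraries alone. Of 20 megakaryocyte and platelet genes 3 were called higher, among them Selp, the P-selectin gene (1.34 ± 0.18, adjusted p = 0.00936, or 0.0516 without double-null 2), and 2 lower. Among 12 dendritic cell genes 1 was called higher and 3 lower, among them Tcf4, a factor of plasmacytoid cells (-1.18 ± 0.20, adjusted p = 0.0153), lost without double-null 1, double-null 2 or intact 1 (adjusted p up to 0.0768). The 24 cholesterol synthesis genes gave 3 higher calls and 1 lower, and the 17 Bcl2 family genes gave 2 higher and 1 lower. Their median differences were small (0.12 and 0.09), and the higher calls of both lists depended on single compared libraries. The fit of the 4 compared libraries alone gave 0 higher calls in the Bcl2 family. Of 23 imprinted genes 1 was called higher, Plagl1 (1.96 ± 0.30, adjusted p = 0.0124), lost without intact 1 or intact 2 (adjusted p up to 0.0663), and 3 lower. The list of 11 D-type cyclins, G1 kinases and Rb family genes held 2 higher calls and 1 lower. Of 6 H3K27 demethylases and Asxl-Bap1 genes 2 were called lower and none higher, Asxl1 (-0.53 ± 0.09, adjusted p = 0.0189) and Asxl2 (-0.39 ± 0.08, adjusted p = 0.0261), and both were lost without double-null 2, intact 1 or intact 2 (adjusted p up to 0.105). Of 3 tested sex-linked genes none was called by limma, and none had an unadjusted p under 0.05.

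Beside the stefin A genes, other neighbours on a chromosome were called the same way in runs, in mm10 positions. A run of 6 on chromosome 15 (74955051 to 75133807), from Ly6e to I830127L07Rik, was higher by 1.58 to 5.20 and holds Ly6 surface antigen genes, whose similar sequences may share reads. A run of 5 on chromosome 1 (173521311 to 173741809), with Pyhin1 and Pydc3, sensors of foreign DNA and their relatives that interferon is known to induce, was higher by 0.83 to 5.06. A run of 8 on chromosome 15 (96268564 to 97203831), with the chromatin remodelling subunit Arid2 and the amino acid transporters Slc38a1, Slc38a2 and Slc38a4, was lower, from -2.49 to -0.83. These runs were chosen after their values were seen and no test was made of them.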
